A study of Mus musculus with 6 samples.

Results

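Imprinted genes were followed in mouse embryonic fibroblasts, connective-tissue cells cultured from embryos, that lacked Klf4 (Klf4 -/-, called Klf4-null) or were wild type (Klf4 +/+). Klf4 encodes a zinc-finger transcription factor. Each group held 3 samples on 1 Illumina bead array each, and all 6 carried the C57Bl/6 strain label and an age of 13 days. Total RNA was taken from cultures close to confluence, and the labels tie no sample to an embryo or culture of its own. The p-values therefore reflect the spread among these arrays alone, part of which may be technical. The members were 48 names of genes known to be imprinted in the mouse, and probes were taken by gene symbol. Deposited symbols matched 46 of these names, which are 46 of 34508 symbols and cover 103 of 46621 probes. The 48 names include Meg3 and its older name Gtl2, of which the 5 probes carry Gtl2, and no probe was listed as Kcnq1ot1. The members were sorted into 19 loci and by the parental allele known to be expressed: 21 paternal, 22 maternal and 3 whose imprint depends on the transcript isoform (Gnas, H13 and Inpp5f).

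An imprinted gene is expressed mainly from the copy inherited from a particular parent. The choice is kept by DNA methylation that is set at imprinting control regions in the germ line and copied at each cell division, and many imprinted genes lie in clusters that share such a region. Paternally expressed genes such as Igf2 and Dlk1 are known for promoting fetal growth or holding back differentiation, and maternally expressed genes such as Grb10, Igf2r and H19 for restraining growth. Some members, such as Ascl2, Slc22a3 and Ube3a, are imprinted only in the placenta or the brain, so their allele label describes those tissues. The arrays measured transcript level and not which allele was read.

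Promoters of 5 genes with the strongest falls or a shared start are shown because a start shared by members (Snurf, Peg3) or the site of a known motif can be read from them. The sequences are from RefSeq (build GRCm38.p6), are 300 bases long around a transcription start, and run 5′ to 3′ along the gene. Capitals mark CACCC or its reverse complement GGGTG, the core of the sites that Kruppel-like factors are known to bind. Grb10 has 2 starts and Slc38a4 has 3 in that table, of which the most upstream is printed.
Dlk1 (chr12:109452573-109452872, plus strand): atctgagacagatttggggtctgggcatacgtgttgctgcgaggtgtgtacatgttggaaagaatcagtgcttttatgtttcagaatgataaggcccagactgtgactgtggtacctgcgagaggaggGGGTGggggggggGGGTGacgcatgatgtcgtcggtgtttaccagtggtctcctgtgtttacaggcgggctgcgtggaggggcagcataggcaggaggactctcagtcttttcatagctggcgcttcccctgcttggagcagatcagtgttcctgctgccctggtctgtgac
Slc38a4 (chr15:97055907-97056206, minus strand): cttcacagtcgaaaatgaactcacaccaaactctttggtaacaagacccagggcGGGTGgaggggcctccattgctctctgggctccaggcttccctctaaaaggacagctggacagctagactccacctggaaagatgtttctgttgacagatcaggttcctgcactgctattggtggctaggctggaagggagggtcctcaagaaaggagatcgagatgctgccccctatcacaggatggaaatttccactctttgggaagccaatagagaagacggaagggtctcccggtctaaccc
Snurf (chr7:60005150-60005449, minus strand): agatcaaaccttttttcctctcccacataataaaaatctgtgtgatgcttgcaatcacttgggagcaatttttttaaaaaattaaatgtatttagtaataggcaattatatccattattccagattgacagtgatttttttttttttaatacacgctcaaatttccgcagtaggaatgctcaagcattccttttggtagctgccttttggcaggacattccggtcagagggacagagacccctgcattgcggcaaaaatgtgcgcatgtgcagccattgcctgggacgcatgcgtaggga
Peg3 (chr7:6730370-6730669, minus strand): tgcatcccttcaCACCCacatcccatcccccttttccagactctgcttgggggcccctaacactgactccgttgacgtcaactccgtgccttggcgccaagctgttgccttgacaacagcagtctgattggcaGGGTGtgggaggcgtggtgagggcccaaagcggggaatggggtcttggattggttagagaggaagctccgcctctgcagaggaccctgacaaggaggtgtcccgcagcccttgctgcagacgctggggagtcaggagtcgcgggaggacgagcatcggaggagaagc
Grb10 (chr11:12037371-12037670, minus strand): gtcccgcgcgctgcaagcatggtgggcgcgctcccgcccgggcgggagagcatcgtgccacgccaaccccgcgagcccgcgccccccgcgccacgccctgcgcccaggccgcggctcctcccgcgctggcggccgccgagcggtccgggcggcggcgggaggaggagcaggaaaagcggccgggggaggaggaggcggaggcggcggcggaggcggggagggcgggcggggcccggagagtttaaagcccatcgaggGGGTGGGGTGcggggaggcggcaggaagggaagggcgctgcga
The motif occurred 2 times in the windows of Dlk1, Peg3 and Grb10 (side by side in Grb10, as a single run of capitals), 1 time in that of Slc38a4 and not in that of Snurf. On either strand it was present in 57.5% of all 32851 promoter windows in the table, and in 40 of the 60 windows that belong to 40 member genes (66.7%). A second motif, GGGCG or its reverse complement CGCCC, was in 36 of those 60 windows (60%), against 47.0% of all windows. The windows of members held a median of 14.5 CpG dinucleotides, against 7 over all windows. The Peg3 window overlaps that of Usp29 on the opposite strand by 263 bases, and the Snurf window is also listed as a start of Snrpn. These matches describe the letters in the windows, and binding was not measured.

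Values are normalized probe intensities. A probe was tested if it lay above an estimated background, at an intensity of about 54.0 to 54.2, on at least 3 of the 6 arrays, and 21825 probes of the whole table did so. Fold changes are Klf4-null over wild type on the log2 scale with their standard error (SE), and a probe was called changed at a Benjamini-Hochberg adjusted p under 0.05 in limma. Over all tested probes 38.9% were called, 19% higher and 19.9% lower, and 47.3% had groups that did not overlap. The median log2 fold change of all tested probes was -0.02. As a check of the labels, Klf4 probe ILMN_1241903 gave 39.7, 46.8 and 43.7, all background, in Klf4-null and 98.7, 95.6 and 103 in wild-type samples, a fall of at least 1.83-fold. Klf4 probe ILMN_1221264 gave 45.4, 43.9 and 41.3, also background, in Klf4-null and 63.2, 66.2 and 77.99 in wild-type samples, a fall of at least 1.27-fold. In contrast, Klf4 probe ILMN_2593684 gave 702, 707 and 737 in Klf4-null and 403, 494 and 380.1 in wild-type samples and rose 1.69-fold (adjusted p = 2.4e-05). Which part of Klf4 each probe reads is not given in the sources used here. The Xist probe ILMN_2475156 averaged 260.0 ± 24.2 in Klf4-null and 70.2 ± 4.29 in wild-type samples (SD, n = 3 each). Probe ILMN_1224210 of the Y-linked Kdm5d averaged 43.1 ± 3.73 in Klf4-null samples, which is background, and 122 ± 19.4 in wild-type samples. Another probe of each gene (Xist ILMN_1242589 and Kdm5d ILMN_1256584) was at background on every array. Sex of the cultures and genotype cannot be told apart for the results that follow.

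Of the 103 member probes, 46 were tested and 57 were too dim. Among those tested, 20 fell (43.5%), 9 rose (19.6%) and 17 did not pass, and the groups did not overlap for 31 (67.4%). At least 2-fold falls were made by 11 probes (23.9%), against 2.89% of all tested probes, and 0 member probes rose by that much, against 3.5%. The median log2 fold change of the tested member probes was -0.14. Of the 46 tested, 14 were above background on fewer than 6 arrays, and 6 of these were above it on no Klf4-null array. Such probes, which include several of the 11 that fell at least 2-fold, entered the test through the wild-type arrays, where they were brighter. The members were also chosen with earlier results of these data known. The counts therefore describe the probes and are no independent evidence of a direction. Among the 32 probes above background on all 6 arrays, 20 were called, against 40.7% of all such probes. Of these, 12 fell and 8 rose, against 21.7% and 19% of all such probes. Members with several probes count more than once. By gene, 25 of the 46 members were tested, 12 had a probe that fell, 7 had a probe that rose, 0 had both, and 6 had no probe that passed. Read by the brightest probe of each of the 25, 11 fell and 6 rose, against 19.9% and 19% of all tested probes.

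**Figure D1:**
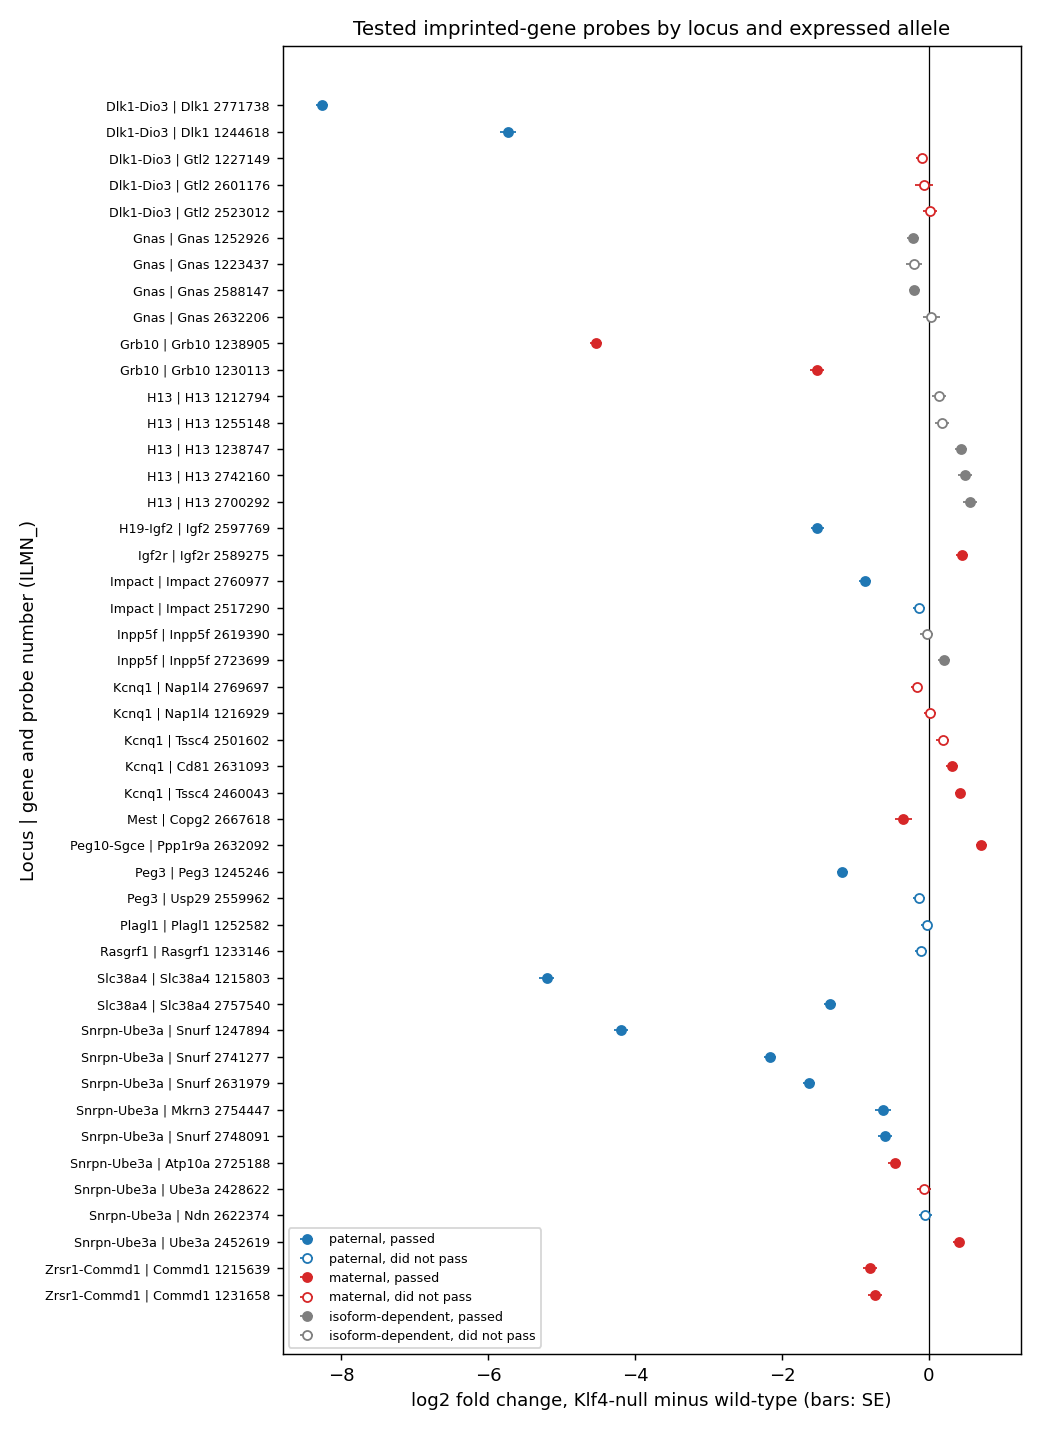
Log2 fold change (Klf4-null minus wild-type, horizontal axis) with its SE for each of the 46 tested member probes, in rows by locus. Colour gives the allele known to be expressed and filled points passed at an adjusted p under 0.05. Filled paternal points all lie left of 0, while maternal points lie on both sides.

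Among the members, the paternally expressed genes that passed were all lower in Klf4-null samples. Of 43 probes of paternally expressed members, 17 were tested, 12 fell, 0 rose by limma and 5 did not pass (0 rose at an unadjusted p under 0.05, and 0 had a positive log2 fold change). Over all tested probes 19.9% fell and 19% rose. Those that fell belonged to 7 genes, Dlk1, Igf2, Slc38a4, Snurf, Peg3, Impact and Mkrn3, from 6 loci. Above background on all 6 arrays were 7 of the 17 tested probes, of which 5 fell, against 21.7% of all probes above background on all 6 arrays. The other tested probes include ones above background on no Klf4-null array. For those the filter favoured a negative fold change, so the absence of positive values is no independent evidence of a direction. Of 44 probes of maternally expressed members, 18 were tested, 6 fell (33.3%) and 5 rose (27.8%), against the same 19.9% and 19% of all tested probes. The classes also differ in breadth of imprinting. Of the tested maternal genes only Grb10, Igf2r and Gtl2 are broadly imprinted, and of the tested paternal genes only Rasgrf1 is not. Of 27 tested probes of broadly imprinted members 14 fell and 4 rose. Falls of at least 2-fold were made by 11 of these, against 2.89% of all tested probes. Some of the 11 were above background on no Klf4-null array, so the filter favoured them. Of 19 tested probes of members imprinted in few tissues 6 fell and 5 rose, with 0 falls of at least 2-fold. With so few probes, 0 cannot be told from 2.89%. The difference between the allele classes was not tested, because the members are few, share probes by gene and were filtered on level.

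Dlk1, a transmembrane protein that holds back adipocyte differentiation, was the most reduced member. Its probe ILMN_2771738 had intensities of 48.2, 47.8 and 47.3 in Klf4-null samples, against 14127, 14043 and 15958 in wild-type samples. The Klf4-null values were background on every array, and the groups did not overlap. The fall was at least 271-fold (log2 fold change -8.26 with SE 0.08, adjusted p = 3.7e-16, by limma). The second probe, ILMN_1244618, gave 95.05, 111 and 96.1 in Klf4-null and 5166, 4659 and 6346 in wild-type samples. It fell 53.2-fold (log2 fold change -5.73 with SE 0.11, adjusted p = 7.2e-14) and stayed above background in the Klf4-null samples. In such bulk RNA, fewer cells expressing a gene and less RNA per cell cannot be told apart.

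The maternally expressed neighbour of Dlk1 in the same cluster had no probe that passed, and its tested probes were dim in both groups. Gtl2, the non-coding RNA now named Meg3, had 3 tested probes with log2 fold changes of -0.10, -0.07 and 0.02 (adjusted p of 0.382, 0.715 and 0.927). Probe ILMN_2523012 gave 72.97, 80.99 and 88.6 in Klf4-null and 88.1, 76.6 and 75.2 in wild-type samples, and the groups overlapped. On ILMN_1227149 the mean was 53.4 ± 3.19 in Klf4-null and 57.1 ± 1.61 in wild-type samples (SD, n = 3 each). That probe was above background on 1 of the 3 Klf4-null arrays. The SE of the log2 fold change was 0.08, 0.12 and 0.09 on the 3 probes in the order above. The other 2 of the 5 Gtl2 probes were at background on every array. With signal this close to background, the absence of a call does not show that Gtl2 was unchanged. Rtl1, a retrotransposon-derived gene needed in the placenta, and Dio3, the deiodinase that inactivates thyroid hormone, had no tested probe.

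At the Snrpn-Ube3a locus, the region deleted in Prader-Willi and Angelman syndromes in humans, Snurf fell on each of its 4 probes. Snurf encodes a small protein from the upstream reading frame of the Snurf-Snrpn transcript, and its start is the promoter window without a CACCC match shown above. Probe ILMN_1247894 had 50.1, 43.5 and 42.7 in Klf4-null samples, against 808, 922 and 764 in wild-type samples, a fall of at least 15.3-fold to background (log2 fold change -4.19 with SE 0.09, adjusted p = 2.9e-13). Probe ILMN_2741277 gave 61.2, 56.1 and 57.2 in Klf4-null and 247, 269 and 265 in wild-type samples (4.48-fold lower, log2 fold change -2.16 with SE 0.08, adjusted p = 4.2e-11). Every Klf4-null value lay below every wild-type value on both. ILMN_2631979 fell at least 2.86-fold, with 48.9, 52.3 and 48.8 in Klf4-null and 149, 170.2 and 146 in wild-type samples. ILMN_2748091 fell 1.51-fold, with 55.2, 63.2 and 58.3 in Klf4-null and 97.97, 81.5 and 88.3 in wild-type samples. The single probe listed as Snrpn was at background in both groups. Which transcript each of these probes reads is not known here, so the Snurf probes may also read transcripts of Snrpn.

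Other tested genes of that locus differed by less than 2-fold. Mkrn3, a paternally expressed ring finger protein known for restraining the onset of puberty, had 142, 111 and 109 in Klf4-null and 172, 183 and 200.3 in wild-type samples and fell 1.54-fold (log2 fold change -0.62, adjusted p = 3.0e-04). Atp10a, a phospholipid flippase, had 416, 404 and 409 in Klf4-null and 593, 504 and 607 in wild-type samples and fell 1.38-fold (adjusted p = 6.1e-04). Ube3a, the ubiquitin ligase read only from the maternal copy in neurons, rose 1.32-fold on ILMN_2452619, with 90.1, 86.2 and 88.9 in Klf4-null and 66.2, 62.8 and 71.7 in wild-type samples (adjusted p = 0.001). On the other tested Ube3a probe, ILMN_2428622, the log2 fold change was -0.07 and did not pass (adjusted p = 0.665), and its remaining 5 probes were too dim. Ndn, the MAGE protein necdin, stood near background in both groups (log2 fold change -0.05, adjusted p = 0.729), and Magel2 was not tested.

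Slc38a4, an amino acid transporter expressed from the paternal allele, fell almost to background. Probe ILMN_1215803 gave 53.8, 60.2 and 69.9 in Klf4-null samples, against 2139, 2350.4 and 2267 in wild-type samples, and was above background on 2 of the 3 Klf4-null arrays. The fall was 36.9-fold (log2 fold change -5.21 with SE 0.10, adjusted p = 5.0e-14). Probe ILMN_2757540 fell at least 2.00-fold, with 40.4, 44.4 and 43.01 in Klf4-null and 106, 108 and 110.0 in wild-type samples. No value overlapped between the groups on either probe.

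Igf2, the fetal growth factor, was dim in both groups. Its single probe gave 58.3, 49.2 and 54.7 in Klf4-null and 162, 153 and 149 in wild-type samples and fell 2.87-fold (log2 fold change -1.52 with SE 0.08, adjusted p = 4.7e-09), with 2 of 3 Klf4-null arrays just above background. H19, the non-coding RNA that shares its enhancers, was not above background on any array. Igf2r, the receptor that carries IGF2 to lysosomes and so removes it, was 733, 702 and 753 in Klf4-null and 548, 541 and 509 in wild-type samples and rose 1.37-fold (log2 fold change 0.45 with SE 0.08, adjusted p = 3.0e-04). The groups did not overlap for Igf2 or for Igf2r.

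Peg3, a paternally expressed zinc-finger protein, fell at least 1.76-fold on ILMN_1245246, with 43.6, 40.4 and 42.4 in Klf4-null and 98.2, 91.4 and 96.7 in wild-type samples (log2 fold change -1.18 with SE 0.08, adjusted p = 2.4e-08). All Klf4-null values were background, and its other 2 probes were at background in both groups. Usp29, which starts on the opposite strand within the shared promoter window, had a probe with 67.4, 62.5 and 60.4 in Klf4-null and 75.4, 69.6 and 64.4 in wild-type samples that did not pass (log2 fold change -0.14, adjusted p = 0.246). Zim1, the maternally expressed neighbour, had no tested probe. Impact, an inhibitor of the GCN2 kinase, had 621, 526 and 585 in Klf4-null and 1043, 1032 and 1075 in wild-type samples on ILMN_2760977 and fell 1.82-fold (log2 fold change -0.87 with SE 0.08, adjusted p = 1.4e-06). The groups did not overlap there, while its other probe did not pass (log2 fold change -0.14, adjusted p = 0.215). The zinc-finger factor Plagl1 and the Ras exchange factor Rasgrf1 each had 1 tested probe near background that did not pass (log2 fold changes -0.03 and -0.11).

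Grb10, an adaptor that dampens signalling from the insulin and IGF1 receptors, is expressed from the maternal copy in most tissues and from the paternal copy in neurons. Both of its tested probes fell. Probe ILMN_1238905 gave 291, 292 and 298 in Klf4-null samples, against 6678, 6272 and 7432 in wild-type samples. It fell 23.1-fold (log2 fold change -4.53 with SE 0.08, adjusted p = 4.5e-14) but stayed well above background in every Klf4-null sample. Probe ILMN_1230113 fell 2.87-fold, with 65.7, 71.2 and 70.6 in Klf4-null and 173, 225 and 202 in wild-type samples (log2 fold change -1.52). Ddc, the aromatic amino acid decarboxylase beside it, was at background on all 3 of its probes.

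**Figure D2:**
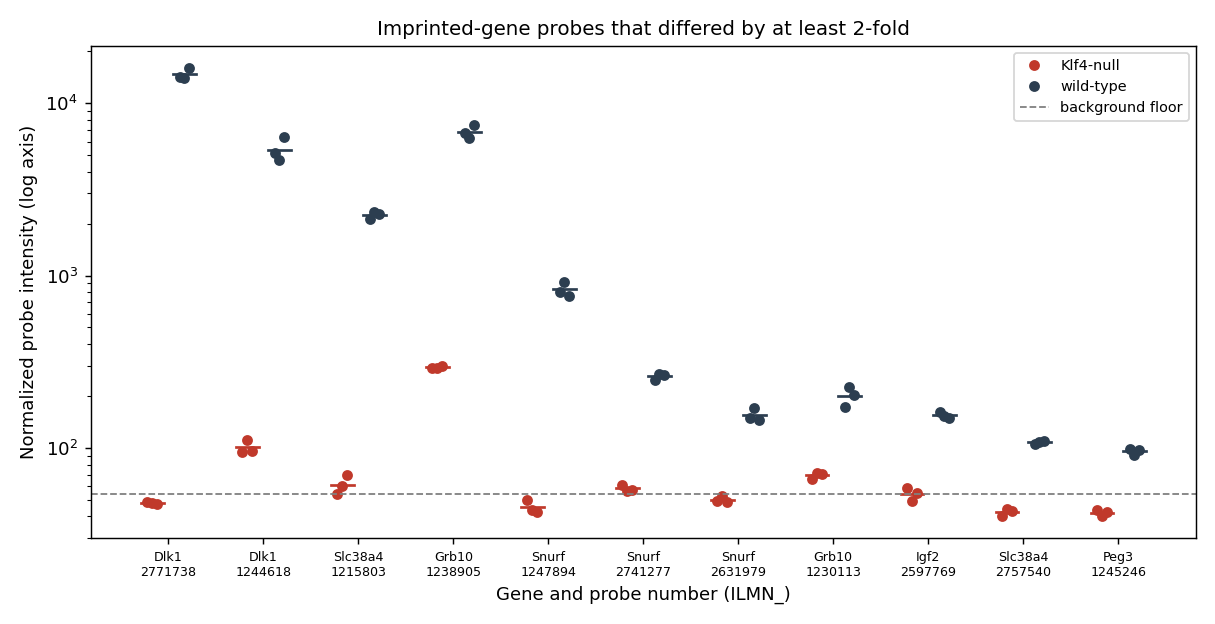
Normalized intensity (log axis) of the 11 member probes that differed by at least 2-fold, with 3 points and their mean (bar) for Klf4-null samples left of wild-type samples, in order of log2 fold change. The dashed line is the background floor. Klf4-null values of both Slc38a4 probes, Igf2, Peg3 and Snurf lie near or below it, while Grb10 ILMN_1238905 stays near 294 ± 3.63.

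Among the other maternally expressed members, changes were under 2-fold. Commd1, a regulator of copper handling and endosomal sorting, fell on both probes, with 2598, 1983 and 2299.8 in Klf4-null and 3912, 3785 and 3698 in wild-type samples on ILMN_1231658 (log2 fold change -0.74 with SE 0.10, adjusted p = 3.0e-05) and 909, 837 and 795 in Klf4-null and 1664, 1489 and 1298 in wild-type samples on ILMN_1215639 (log2 fold change -0.80). Its paternally expressed intronic neighbour Zrsr1 was not tested. Copg2, a coatomer subunit beside Mest, gave 141, 124 and 116 in Klf4-null and 154, 141 and 193 in wild-type samples and fell 1.27-fold (adjusted p = 0.0274). The groups overlapped, and the Copg2 call was lost without Klf4-null replicate 2 or 3 or without wild-type replicate 3. Mest itself was at background on both probes.

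In the Kcnq1 cluster, which the paternal non-coding RNA Kcnq1ot1 silences in cis, members that passed rose slightly. Cd81, a tetraspanin, gave 12664, 14188 and 13347 in Klf4-null and 10566, 11205 and 10464 in wild-type samples and rose 1.25-fold (log2 fold change 0.32 with SE 0.08, adjusted p = 0.00536). Tssc4 rose 1.34-fold on ILMN_2460043, with 328, 332 and 330.3 in Klf4-null and 250.4, 242 and 247 in wild-type samples (adjusted p = 3.6e-04), and its other probe did not pass (log2 fold change 0.19, adjusted p = 0.107). Nap1l4, a histone chaperone, gave 4279, 4529 and 4407 in Klf4-null and 5091, 4919.5 and 4783 in wild-type samples. The Nap1l4 groups did not overlap, but the difference did not pass (log2 fold change -0.16, adjusted p = 0.11). Kcnq1, Ascl2, Phlda2 and Slc22a18 had no tested probe. In the Peg10-Sgce cluster only the actin-binding protein Ppp1r9a was tested. It gave 71.3, 67.95 and 72.3 in Klf4-null samples and 44.6, 40.8 and 43.6, all background, in wild-type samples, a rise of at least 1.30-fold (log2 fold change 0.71 with SE 0.08, adjusted p = 4.7e-06), while Peg10, Sgce, Asb4 and Calcr were not tested.

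Of the members whose imprint depends on the isoform, H13, the signal peptide peptidase, rose on 3 of its 5 tested probes. On ILMN_2700292, Klf4-null samples had 1502, 1439 and 1182 and wild-type samples had 932, 889 and 972 (1.47-fold, log2 fold change 0.56 with SE 0.10, adjusted p = 3.4e-04). ILMN_2742160 gave 822, 719 and 685 in Klf4-null and 493, 530.0 and 556 in wild-type samples, and ILMN_1238747 gave 261, 276 and 275 in Klf4-null and 214, 197 and 187 in wild-type samples (log2 fold changes 0.49 and 0.44). The groups did not overlap on these 3 probes. Inpp5f, a phosphoinositide phosphatase, rose 1.15-fold on ILMN_2723699, with 581, 554 and 564 in Klf4-null and 467, 496 and 511 in wild-type samples (adjusted p = 0.0486), a call that was lost in each fit without an array except that without wild-type replicate 3. Gnas, which encodes the stimulatory G protein alpha subunit, had 2 of 4 tested probes that fell. ILMN_1252926 gave 84.4, 92.4 and 84.6 in Klf4-null and 97.1, 107 and 99.3 in wild-type samples, and ILMN_2588147 gave 51.1, 52.5 and 51.3 in Klf4-null and 57.9, 60.1 and 59.5 in wild-type samples (log2 fold changes -0.22 and -0.20, adjusted p of 0.0471 and 0.0498). Both calls were lost without any single array, and which Gnas or Inpp5f isoform a probe reads is not known here. Probe ILMN_2632206 gave 881, 762 and 682 in Klf4-null and 655, 757 and 858 in wild-type samples and did not pass (adjusted p = 0.847). Nnat, Gatm, Slc22a2 and Slc22a3 had no tested probe.

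**Figure D3:**
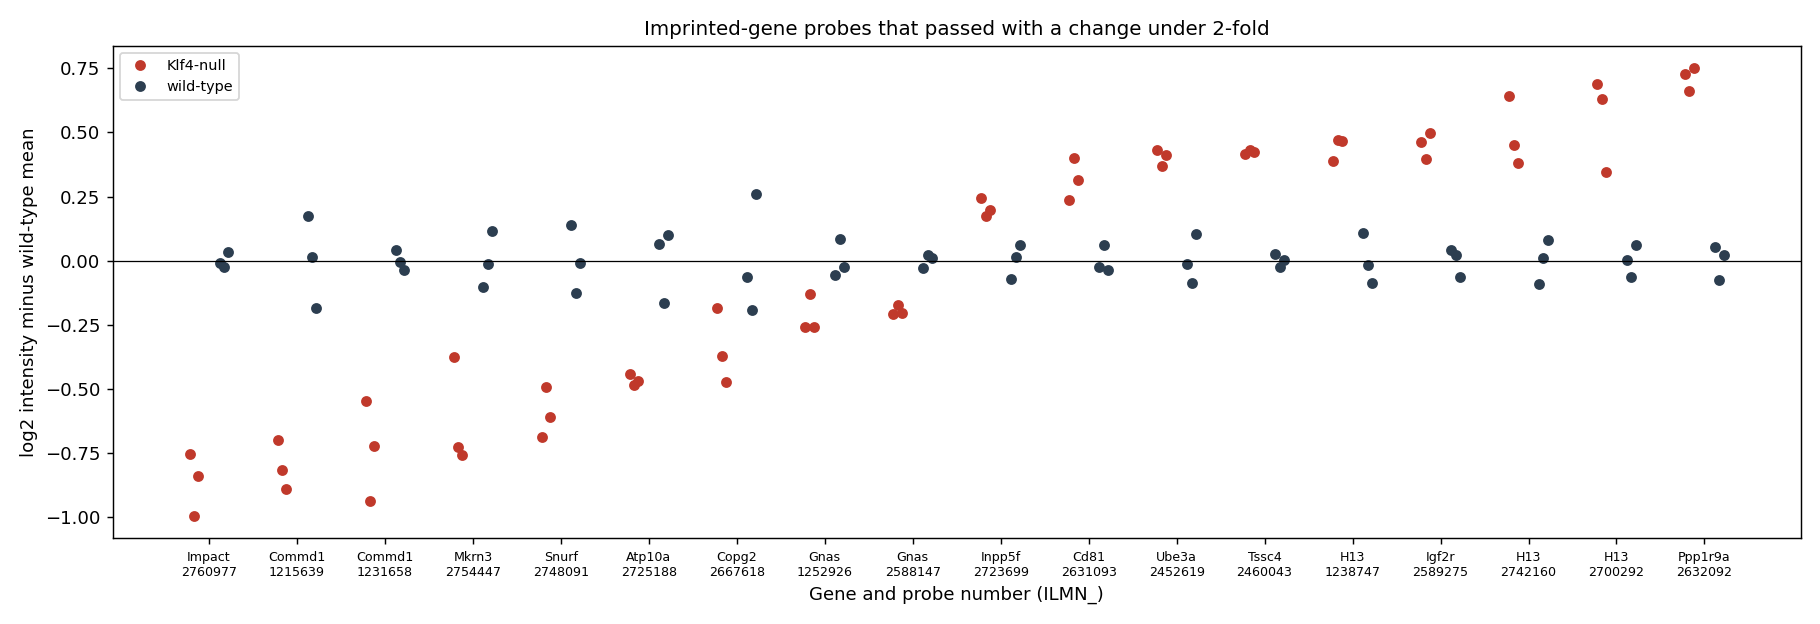
Log2 intensity minus the wild-type mean for the 18 member probes that passed with a change under 2-fold, as 3 Klf4-null points left of 3 wild-type points per probe. Of these probes, 9 fell and 9 rose, and the groups overlap only for Copg2.

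The genes around each imprinted locus were compared with its members, taking up to 3 tested protein-coding genes on each side by their order in RefSeq. Only the member names were left out, so a flanking gene can itself be imprinted or lie within an imprinted region. The adjacent H19-Igf2 and Kcnq1 loci share the flanking genes Tnni2, Mrpl23, Ins2 and Cars. Of 110 flanking genes, 23 rose (20.9%) and 24 fell (21.8%), against 19% and 19.9% of all tested probes. Around Peg3, 0 of 6 flanking genes passed, with log2 fold changes from -0.18 to 0.09. Around Slc38a4, 3 of 6 rose and 0 fell, among them its family member Slc38a2 (log2 fold change 0.52). Around the Dlk1-Dio3 cluster 4 of 6 fell and 1 rose, with log2 fold changes from -0.54 to 0.29, against -8.26 and -5.73 for Dlk1. Beside Snrpn-Ube3a, 1 of 6 fell, the magnesium transporter Nipa1 (log2 fold change -0.91). At least 2-fold changes were made by 12 of the 110 flanking genes, 7 higher and 5 lower. Of all tested probes, 3.5% were higher and 2.89% lower by that much. The largest rises were those of Npepl1 beside Gnas (log2 fold change 3.61), the EGF receptor Egfr beside Grb10 (2.39), Cars beside H19-Igf2 and Kcnq1 (2.26) and Otx1 beside Zrsr1-Commd1 (2.25). The largest fall was that of the zinc-finger gene Zfp521 beside Impact (log2 fold change -3.45). Flanking genes named here were picked after their values were seen.

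**Figure D4:**
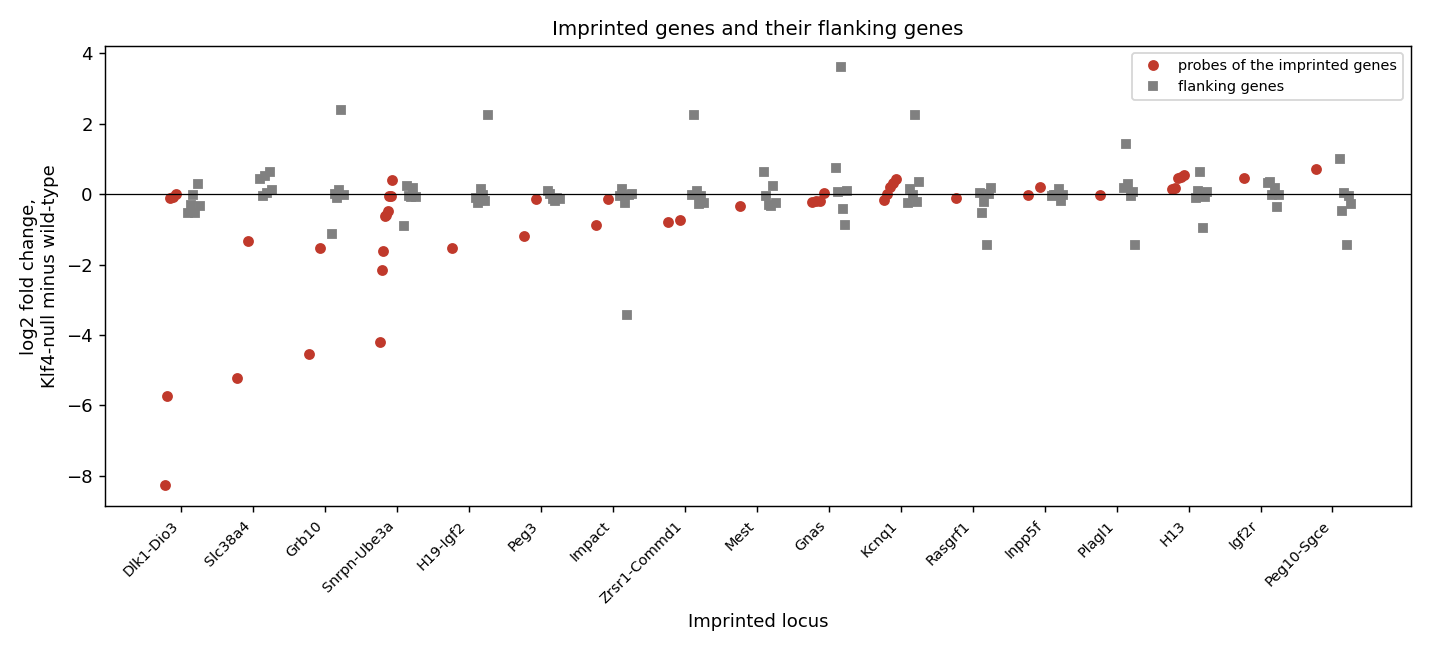
Log2 fold change (Klf4-null minus wild-type) of the tested probes of each imprinted locus (circles) beside its flanking genes (squares), for the 17 loci with a tested probe. Around Dlk1-Dio3, Slc38a4, Snrpn-Ube3a and Peg3 the lowest values belong to members, while the flanking genes of Peg3 stay between -0.18 and 0.09. Flanking genes are those outside the member list and can be imprinted.

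Genes that set or keep imprints were read from a list of 21, each by its brightest probe. Of the 16 genes tested, 5 were lower, 3 were higher and 8 were not called, with a median log2 fold change of -0.04. The shares over all tested probes were 19.9% lower and 19% higher. The de novo methyltransferase Dnmt3b gave 199, 214 and 202 in Klf4-null and 465, 445 and 503 in wild-type samples and fell 2.29-fold (log2 fold change -1.20 with SE 0.08, adjusted p = 3.2e-08). Its cofactor Dnmt3l gave 99.3, 98.5 and 99.4 in Klf4-null and 223, 252 and 198 in wild-type samples and fell 2.25-fold. Neither pair of groups overlapped. The Polycomb methyltransferase Ezh2 fell 1.72-fold and the dioxygenase Tet1, which oxidises methylcytosine, fell 1.52-fold. The remaining calls, named after their values were seen, were a fall of the insulator protein Ctcf (log2 fold change -0.30) and rises of the maintenance methyltransferase Dnmt1 (0.25), the helicase Hells (0.33, through a synonym) and Mbd3 (0.35). Uhrf1, which brings Dnmt1 to newly copied DNA, and Trim28, the corepressor that guards imprints, did not pass (log2 fold changes -0.03 and 0.15). Dnmt3a, the other de novo methyltransferase, and Tet3 and Dppa3 had no probe above background on any array. DNA methylation was not measured.

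Of 8 tested genes of IGF2 signalling and of the proteins that bind its mRNA, 4 fell and 2 rose, with a median log2 fold change of -0.37. Over all tested probes the shares were 19.9% and 19%. Igf2bp3, which binds Igf2 mRNA in embryonic cells, gave 103, 94.2 and 101 in Klf4-null and 2394, 2183 and 1951 in wild-type samples. The groups did not overlap, and the fall was 21.8-fold (log2 fold change -4.45 with SE 0.09, adjusted p = 1.1e-13). Its relatives Igf2bp2 and Igf2bp1 fell 2.44-fold and 1.56-fold. The insulin receptor Insr, through a probe listed under a synonym, rose 1.92-fold, with 605, 698 and 629.7 in Klf4-null and 321, 308 and 382 in wild-type samples. Igf1r, the receptor through which IGF2 signals, did not pass (log2 fold change -0.19, adjusted p = 0.158). The adaptor Irs1 fell and Igf1 rose (log2 fold changes -0.56 and 0.25, named after their values were seen).

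**Figure D5:**
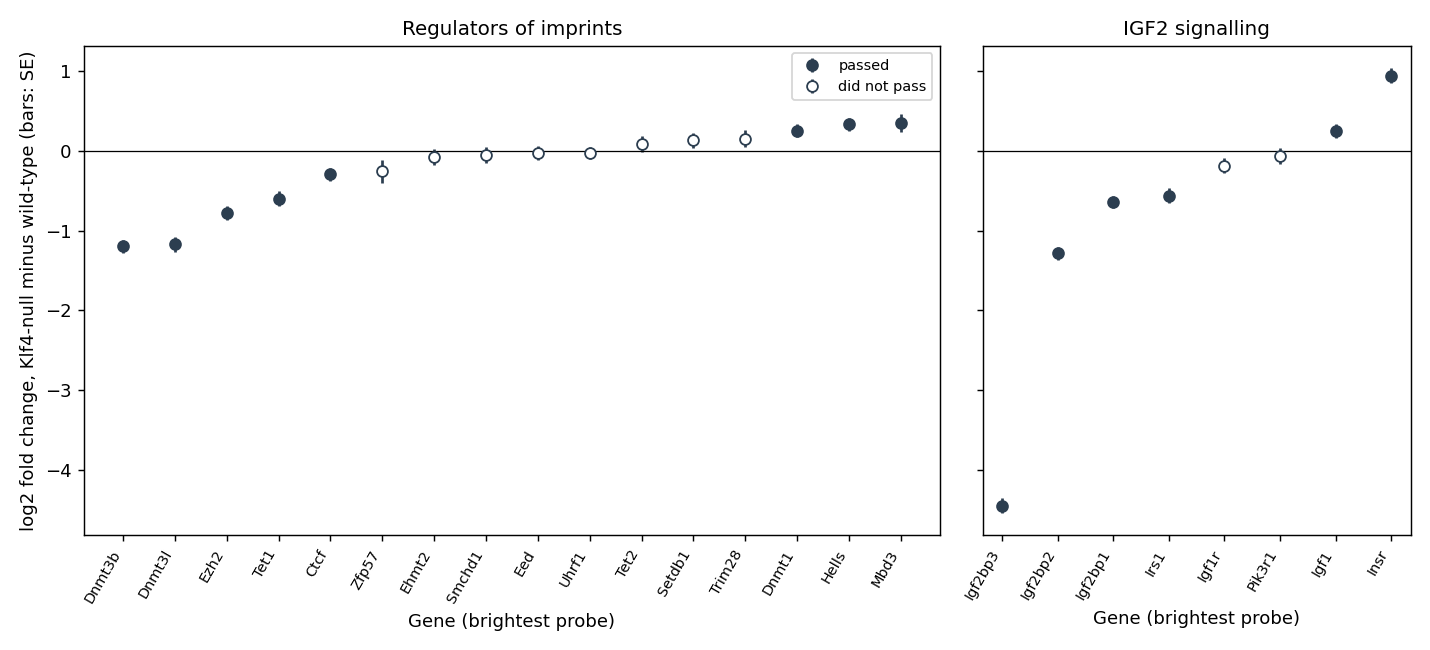
Log2 fold change (Klf4-null minus wild-type) with its SE for the 16 tested regulators of imprints (left) and 8 tested genes of IGF2 signalling (right), each by its brightest probe. Filled points passed at an adjusted p under 0.05. Dnmt3b (-1.20) and Igf2bp3 (-4.45) are the lowest of their panels.

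A further list held 38 imprinted genes outside the members. Among its 16 tested genes 8 were higher, 1 was lower and 7 were not called, with a median log2 fold change of 0.25. Of all tested probes, 19% were higher and 19.9% lower. The proteoglycan decorin (Dcn) rose 21.5-fold, with 2929.7, 2777 and 2821 in Klf4-null and 125, 138 and 134 in wild-type samples. The lactonase Pon3 rose at least 5.14-fold, with 249, 293 and 295 in Klf4-null and 47.3, 46.3 and 46.5, all background, in wild-type samples. The Polycomb-related Sfmbt2 rose 2.39-fold and the AMP deaminase Ampd3 rose 1.89-fold. The gene that fell, named after its values were seen, was the docking protein Gab1 (log2 fold change -0.70). Dcn, Pon3, Sfmbt2 and Gab1 are known to be imprinted mainly in extraembryonic tissues. The genes of this list were not sorted by expressed allele. Whether paternally expressed genes outside the members were also lower was therefore not examined, and more genes of this list were higher than lower.

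Cell type markers were read in the same samples, where 19.9% of all tested probes fell and 19% rose. All 12 fibroblast markers were above background, but Thy1, a surface glycoprotein of fibroblasts, was at background in Klf4-null samples (49.8, 48.8 and 48.9, against 3556, 2975 and 3389 in wild-type samples). By brightest probe, 4 of the 12 fell and 4 rose, and the summed intensity of their brightest probes was 44351 to 47442 in Klf4-null and 40783 to 43109 in wild-type samples. Of 5 tested neural markers only Nes, an intermediate filament of progenitors, passed, with 856, 762 and 812 in Klf4-null samples and background in wild-type samples. The summed intensity, which includes Nes, was 1180 to 1266 in Klf4-null and 466 to 488 in wild-type samples. The median log2 fold change of the 5 tested neural markers was -0.11. Of 2 tested fat markers Lpl fell to background (48.7, 51.8 and 50.2 in Klf4-null and 339, 420.4 and 364 in wild-type samples). The fat sums, which include Lpl, were 278 to 314 in Klf4-null and 585 to 668 in wild-type samples, and Fabp4 and Plin1 were at background throughout. Trophoblast markers, relevant to members imprinted in the placenta, showed 0 of 5 tested genes called by limma (0 at an unadjusted p under 0.05). Their sums were 371 to 381 in Klf4-null and 374 to 396 in wild-type samples, and Tpbpa and Hand1 were at background. Of 4 tested blood markers, 1 rose and 1 fell. The sums over all 7 blood markers were 1189 to 1297 in Klf4-null and 775 to 812 in wild-type samples, with Ptprc and Emr1 at background. Epithelial sums were 382 to 393 in Klf4-null and 457 to 498 in wild-type samples (1 of 3 tested genes fell; Epcam, Krt5 and Krt19 at background). Endothelial sums were 359.6 to 377 in Klf4-null and 370.3 to 379.95 in wild-type samples (1 of 3 fell), and pluripotent sums were 316 to 317 in Klf4-null and 297 to 311 in wild-type samples (1 of 3 rose). Of 3 tested muscle markers 0 passed (0 at an unadjusted p under 0.05), with Myod1 and Des at background. The part of these differences in the results for imprinted genes was not tested.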

How the data were processed

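Klf4-null and wild-type mouse embryonic fibroblasts (3 samples each) were profiled on Illumina bead arrays. The authors' deposited table held 1 linear intensity per probe and array, positive and with medians of 51.7 to 51.8 on each array. Their distribution was almost identical across arrays, so values had been normalized between arrays before deposit. The method, background treatment and annotation build are not given in the sources used here. Probe symbols came from another deposited table; its 12 columns of signals and detection p-values match no sample's labels and were not used. For other lists and flanking genes, symbols were updated through RefSeq gene names (GRCm38.p6): 25438 were current, 8745 unique synonyms and 12438 were kept.

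Log2 intensities were fitted with limma 3.58.1 (lmFit, eBayes) in R 4.3.3 with no covariate, 2-sided tests and Benjamini-Hochberg adjustment over the 21825 tested probes. Background was the mode of log2 values per array with the lower side mirrored, and the floor its 95th percentile. A probe at background on every array of a group has only a bound there. "At least" folds compare the brighter group's mean log2 value with the higher of floor and signal in the dimmer group. If the deposited intensities still hold background, folds of dim probes understate the change.

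Every member was to be named, called ones with their values per sample, and up to 4 called genes of each other list with the largest changes. The members and lists were chosen with earlier results of these data known. The number of arrays limits the precision.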

Additional observations from a re-analysis of the deposited data

How the results depend on the processing

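Over 17 alternative settings, 25 of the 29 called member probes kept their direction and their call in every setting in which they were tested other than the test against 1.5-fold. The exceptions were Copg2, Inpp5f and both Gnas probes, whose calls were lost in several settings, and no called probe changed direction. Subtracting 16 from each intensity moved the log2 fold changes of Dlk1 ILMN_2771738 and Snurf ILMN_1247894 to -8.85 and -4.80, but both probes are at background on every Klf4-null array, so that only bounds on their fall can be read. The test against 1.5-fold called 1766 of all probes, 955 higher and 811 lower, and 12 member probes lower and 0 higher (limma's treat; 0 at an unadjusted p under 0.05). Restricting the test to probes above background on all 6 arrays left 12 member probes lower, since fewer probes were tested. Leaving out each array in turn gave 8 to 10 member probes higher and 17 to 19 lower, and 7174 to 8248 probes called over the whole table, of which 3544 to 4086 were higher and 3630 to 4162 lower. A floor from a narrower density bandwidth (0.05), chosen after seeing the data, tested 22209 probes and gave the same 9 higher and 20 lower member probes. With the replicate block, 8 member probes were higher and 18 lower, and 8052 of all probes were called. The replicate numbers showed no pairing of the samples: the deviations of same-numbered samples correlated at -0.02, 0.05 and -0.22, and no sample correlated best with its own number. The highest correlations were 0.27 (Klf4-null replicate 1 with wild-type replicate 3) and 0.26 (Klf4-null replicate 3 with wild-type replicate 2). Their origin was not tested. Signal near background limits what can be said of the 57 untested member probes, whose intensities reached 63.7 at most.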

Other observations

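Among the 57 member probes that were too dim to be tested, the groups did not overlap for 7, of which 5 were higher and 2 lower in Klf4-null samples. These 7 are 12.3% of the untested member probes, near the 12.2% of all 24796 untested probes. Phlda2, a maternally expressed inhibitor of placental growth, gave 63.7, 53.3 and 62.5 in Klf4-null samples, against 46.04, 49.5 and 51.2 in wild-type samples, and was above background on 2 Klf4-null arrays only. A further Grb10 probe, ILMN_2641843, gave 36.9, 40.6 and 40.8 in Klf4-null and 55.1, 51.8 and 61.8 in wild-type samples, lower in Klf4-null samples like the other probes of the gene that were tested. The other probes in this class belonged to Rtl1, Kcnq1, Peg10, Usp29 and Magel2 and were above background on no array. No test was run on these probes, which were singled out after their values were seen.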
